A study of Mus musculus with 7 samples.

Results

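The mitochondrial chromosome of the mouse carries 37 genes, namely 2 for ribosomal RNA (rRNA), 13 for proteins of the respiratory chain and 22 for transfer RNA (tRNA). They are the genes whose symbols begin with mt-, and all 37 were found among the 55487 genes of the count table by their Ensembl identifiers. GFI1+ IAHC cells, sorted as CD31+cKIT+GFI1+ cells of the intra-aortic hematopoietic clusters from E11.5 AGM (aorta-gonad-mesonephros) of CD1 mice with the Gfi1:tomato reporter, had been kept overnight in compE, which blocks the γ-secretase that activates Notch receptors. After washing, sets of 300 to 400 cells were cultured in methylcellulose for 4 h with DMSO alone (washout, n = 3), with compE (n = 2) or with Fc-JAG1, a recombinant Notch ligand (n = 2). The uridine analog EU, at 0.3 mM in all 3 conditions, marked new RNA for capture during these 4 h. The labels give compE as 10 mM and the methods give the same figure in μM.

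A number in the name of a library marks a biological sample, which the labels call an embryo and the study describes as cells from pools of embryos. The permutation tests of shares treat each library as a unit and ignore the shared sample numbers. The tests per gene include the sample number as a term, so their p-values measure the spread left between libraries after that term. Total counts per library ran from 21652927 to 33974693. The 9 marker genes of the gate and of blood emergence summed to 1868 to 2923 CPM (each gene's counts scaled to a fixed library total) in each library, but Gfi1 itself was at 0 counts in 4 of 7 libraries and Pecam1, which encodes CD31, had 18 counts in washout 1 and 11 in Fc-JAG1 3. The 7 macrophage markers summed to 52.1 to 503 CPM, the 6 erythrocyte markers to 0 to 175 CPM, and mesenchymal, neural and epithelial markers to at most 15.7 CPM each. Their part in the results was not tested.

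Mitochondrial DNA is transcribed inside the organelle by its own RNA polymerase, POLRMT, with the factors TFAM and TFB2M. Both strands are copied into long transcripts, and the tRNAs that lie between the other genes are cut out to release rRNAs and mRNAs. The proteins made from these mRNAs are core subunits of complexes I, III, IV and V, whose remaining subunits are encoded in the nucleus. By the methods, the labeled RNA was captured from total nuclear RNA, and the share of mitochondrial RNA removed before capture is not given in the sources used here.

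The share of counts in the 37 genes differed widely between libraries of the same condition. It was 12.7%, 1.14% and 2.48% of total counts in washout 1, 2 and 3. In the same order of sample numbers, it was 7.07% and 1.24% with compE (1 and 2), and 1.88% and 7.35% with Fc-JAG1 (1 and 3). The same order is kept for all values below. The highest share, in washout 1, was 11.1 times the lowest, in washout 2, and both come from the same condition. The 95% Wilson intervals of these shares reach at most 0.0140 percentage points to either side, so counting error is far below the spread between libraries. These intervals cover counting error only, since the libraries carry no molecular identifiers. Mitochondrial genes took 7 of the 10 highest counts in washout 1 and in compE 1, 6 in Fc-JAG1 3, 3 in washout 3 and Fc-JAG1 1, and 2 in washout 2 and compE 2.

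**Figure D1:**
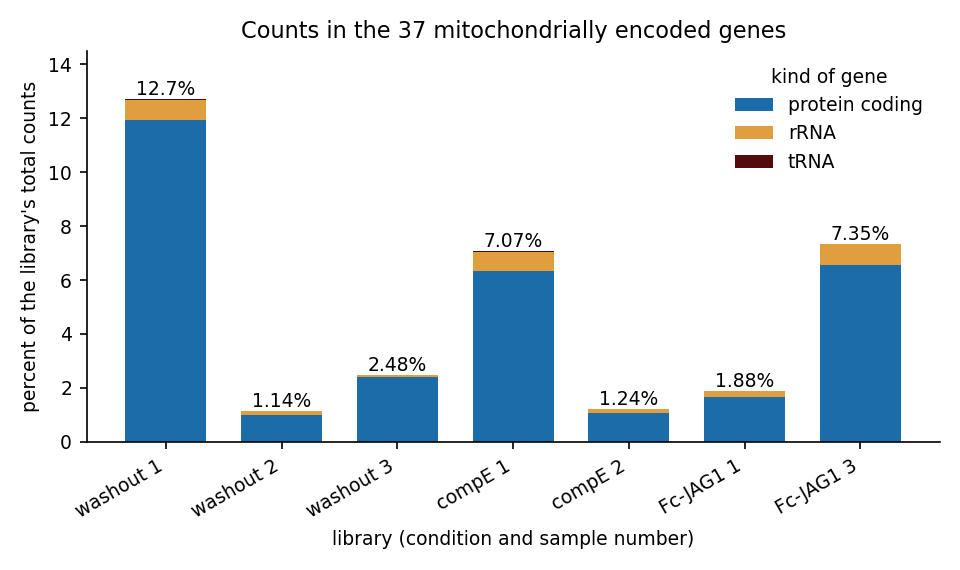
Bars give the percent of each library's total counts in protein-coding, rRNA and tRNA genes of the mitochondrial chromosome, with the sum printed above each bar. The sum runs from 1.14% to 12.7% within the washout alone, and each condition holds a library above 7% beside a library under 2%.

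Among the 3 kinds of gene, mRNA made up most mitochondrial counts. Protein-coding members held 94.0%, 88.8% and 97.4% of mitochondrial counts in washout 1, 2 and 3, 89.6% and 87.8% with compE, and 87.9% and 89.2% with Fc-JAG1. The rRNA members held 5.71%, 10.8% and 2.27% in the washout, 10.2% and 11.9% with compE, and 12.0% and 10.4% with Fc-JAG1. The tRNA members held 0.155% to 0.370%. The rRNA share was low in washout 3 and washout 1, and the other 5 libraries lay within 10.2% and 12.0%.

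The libraries with a high mitochondrial share were those with few other genes detected. Genes outside the mitochondrial chromosome with at least 10 counts numbered 6246 in washout 1, 7567 in washout 3, 8075 in compE 1 and 7986 in Fc-JAG1 3, and these 4 libraries had mitochondrial shares of 2.48% to 12.7%. In washout 2, compE 2 and Fc-JAG1 1 such genes numbered 12333, 12065 and 11582, and the mitochondrial shares were 1.14% to 1.88%. The libraries thus fall into 2 separate sets with each condition in both, so a correlation over the 7 would only restate the gap, and with 4 and 3 libraries it could not be tested within a set. Whether the number of genes detected plays a part in the mitochondrial share was not tested.

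**Figure D2:**
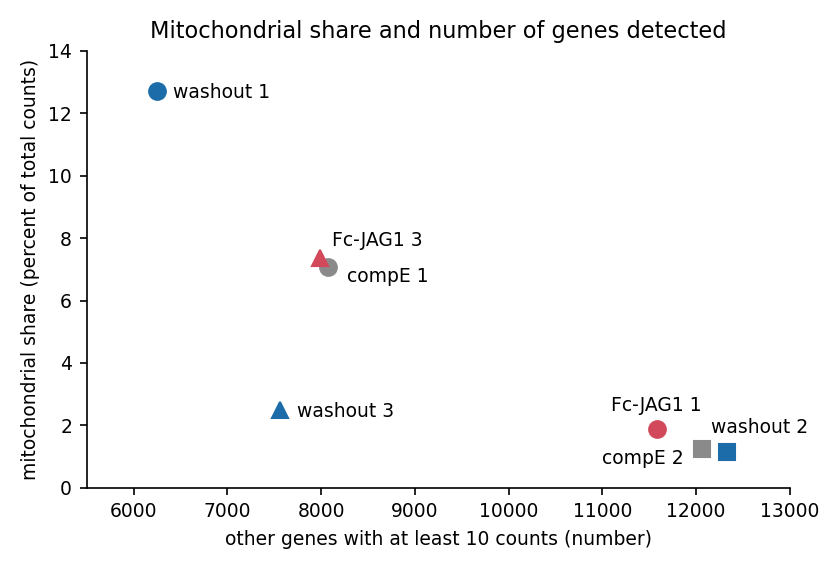
Each point is a library, with the number of other genes at 10 or more counts on the x axis and the mitochondrial percent of total counts on the y axis. Color gives the condition and shape the sample number (circle 1, square 2, triangle 3). The 3 libraries with 11582 or more genes lie under 2%, and the 4 with 8075 or fewer lie at 2.48% or above.

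The rRNA genes mt-Rnr1 and mt-Rnr2 encode the small and large subunit RNAs of the mitochondrial ribosome. On GRCm38, mt-Rnr1 (ENSMUSG00000064337) spans bases 70 to 1024 of the mitochondrial chromosome and mt-Rnr2 (ENSMUSG00000064339) spans 1094 to 2675, both on the plus strand. mt-Rnr2 had 156019, 36172 and 17871 counts in washout 1, 2 and 3, 201714 and 49986 with compE, and 72319 and 195498 with Fc-JAG1. mt-Rnr1 had 1016, 967 and 1 counts in the washout, 3821 and 149 with compE, and 1169 and 5864 with Fc-JAG1. The small rRNA was thus nearly unseen in washout 3, a library in which mt-Rnr2 still had 17871. Per kilobase, mt-Rnr2 stood 20.1 to 203 times above mt-Rnr1 in 6 libraries and 10788 times above it in washout 3, where the denominator is a single count.

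The mRNAs of complex I, the NADH dehydrogenase that feeds electrons into the chain, were counted for mt-Nd1, mt-Nd2, mt-Nd4, mt-Nd5 and mt-Nd6. mt-Nd1 (ENSMUSG00000064341, bases 2751 to 3707, plus strand) had 815585, 119482 and 254901 counts in washout 1, 2 and 3, 564689 and 126253 with compE, and 168097 and 569660 with Fc-JAG1. It made up 27.4% to 34.8% of mitochondrial counts in each library. mt-Nd2 had 97467, 12946 and 24838 counts in the washout, 65781 and 20522 with compE, and 27568 and 57810 with Fc-JAG1, or 2.99% to 4.89% of mitochondrial counts. mt-Nd4 had 189840, 20512 and 48500 counts in the washout, 166839 and 30671 with compE, and 40886 and 140513 with Fc-JAG1, or 5.98% to 8.31%. The counts of these 3 genes were highest in washout 1 and lowest in washout 2, as the mitochondrial totals were, while their shares of that total moved by at most 1.64 times. mt-Nd5 had 175487, 20706 and 39600 counts in the washout, 138998 and 32012 with compE, and 54999 and 123255 with Fc-JAG1, or 5.03% to 8.97%. Together the complex I mRNAs held 48.6% to 53.5% of mitochondrial counts.

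mt-Nd6 (ENSMUSG00000064368, bases 13552 to 14070) is the only protein-coding member on the minus strand. It had 59004, 9796 and 17290 counts in the washout, 54179 and 8820 with compE, and 18348 and 50251 with Fc-JAG1, which is 2.10% to 2.99% of mitochondrial counts. The 9 members on the minus strand, mt-Nd6 and 8 tRNAs, together held 2.24% to 3.14%. Whether the counting used strand is not stated in the sources used here, and without strand the reads of a gene cannot be told apart from those of the transcript that runs opposite it.

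mt-Cytb (ENSMUSG00000064370, bases 14145 to 15288, plus strand) encodes cytochrome b, the core electron carrier of complex III. It had 942372, 89975 and 316756 counts in washout 1, 2 and 3, 592515 and 111209 with compE, and 169716 and 609831 with Fc-JAG1. Its share of mitochondrial counts was 34.3%, 26.2% and 40.2% in the washout, 29.5% and 26.5% with compE, and 27.7% and 31.5% with Fc-JAG1, so the conditions overlapped. mt-Co1, the catalytic subunit of complex IV, had 304065, 31348 and 64869 counts in the washout, 215048 and 39302 with compE, and 59427 and 176149 with Fc-JAG1. It made up 8.24% to 11.1% of mitochondrial counts.

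Per kilobase of the whole gene, the order of the mRNAs was alike in its upper part. mt-Nd1 stood first in 6 of 7 libraries and mt-Cytb in washout 3, the other of the pair was second, and mt-Co1 was next in each of the 7. Counted per window not shared with a nuclear copy, mt-Co1 was next in 2 libraries and mt-Nd4 in 5. The level of mt-Nd1, in counts per kilobase, was 6.61 to 11.1 times that of mt-Nd2 in the same library, and that of mt-Cytb was 4.92 to 11.6 times. The levels of mt-Nd4, mt-Nd5 and mt-Nd6 were 1.12 to 1.91, 0.888 to 1.21 and 0.860 to 1.74 times that of mt-Nd2, and their order differed between libraries. mt-Nd1 and mt-Cytb together took 55.1% to 72.6% of mitochondrial counts, with the highest value in washout 3.

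**Figure D3:**
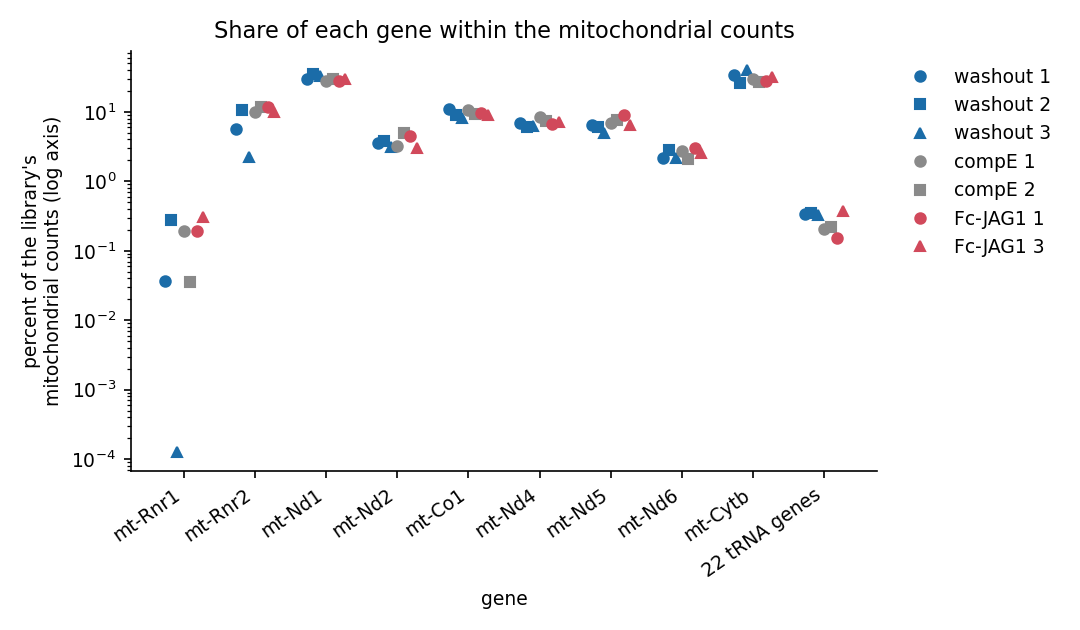
Points give each gene's percent of its library's mitochondrial counts on a log axis, for the 2 rRNAs, the 7 mRNAs with counts in all 7 libraries and the sum of the 22 tRNAs. Color gives the condition and shape the sample number. The mRNAs keep within narrow bands, mt-Rnr2 runs from 2.27% to 11.9%, and mt-Rnr1 spreads from a single count in washout 3 to 0.303% in Fc-JAG1 3.

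The other 6 protein-coding genes had almost no counts. mt-Co2 and mt-Co3, core subunits of complex IV, mt-Atp8 of complex V and mt-Nd4l of complex I had 0 counts in all 7 libraries. mt-Atp6 of complex V had 1 count, in Fc-JAG1 3, and mt-Nd3 of complex I had 590 counts in compE 1, 1 in compE 2 and 0 in the other 5. For reads with a single place in the genome, a count of 0 allows a level of up to 0.0883 to 0.139 CPM, depending on the library. It sets no such limit on the RNA of a gene whose reads also match a nuclear copy, as described below. The genes lie next to each other on the chromosome, between mt-Co1 and mt-Nd4, both of which were counted in each library.

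Near-identical copies of most of these genes are annotated in the nuclear genome. On GRCm38, 7 annotated copies lie side by side on the minus strand of chromosome 1, at 24611535 to 24616197. By position they correspond to bases 6381 to 11043 of the mitochondrial chromosome. These bounds were projected from the nuclear positions, so the length of 4663 bases is the same on both sides by construction. Of 6 pairs of gene and copy checked, 4 share the offset used. Reads of these libraries were 50 bases long and the authors kept only those with a single place in the genome. Of the windows of 50 bases in mt-Co2, 635 of 635 also occur in an annotated nuclear copy, as do 629 of 632 in mt-Atp6, 734 of 735 in mt-Co3, 293 of 299 in mt-Nd3 and 245 of 248 in mt-Nd4l. In mt-Nd4 827 of 1329 windows and in mt-Co1 765 of 1496 windows are shared, against 135 of 1775 in mt-Nd5, 81 of 989 in mt-Nd2, 16 of 1533 in mt-Rnr2 and 0 in mt-Nd1, mt-Nd6, mt-Cytb and mt-Rnr1. mt-Atp8 shares 0 of 155 windows with an annotated copy. It lies mostly in the gap between mt-Co2 and mt-Atp6, which no annotated copy covers, and the sequence of this gap on chromosome 1 was not compared here.

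The first 60 bases of mt-Co2 and of its copy Gm28661 are shown because the gene had 0 counts and the sequences cannot be told apart by a read. They are bases 7013 to 7072 of the mitochondrial chromosome and bases 24615506 to 24615565 of chromosome 1, minus strand, from the transcript sequences of the GENCODE annotation, and hold no marked base.
mt-Co2: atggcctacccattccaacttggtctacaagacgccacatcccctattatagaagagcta
Gm28661: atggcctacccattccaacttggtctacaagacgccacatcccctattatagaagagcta
Over the 681 bases that align, they differ at 0 positions, and Gm28661 had 2 counts in washout 1 and 0 in the other libraries.

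The first 60 bases of mt-Nd3 (9459 to 9518) and of its copy Gm28438 (chromosome 1, 24613060 to 24613119, minus strand) are shown because this pair differs, at the base in capitals.
mt-Nd3: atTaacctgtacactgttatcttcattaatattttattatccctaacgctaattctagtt
Gm28438: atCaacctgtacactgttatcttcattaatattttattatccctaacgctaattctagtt
The substitution is T3C, counted from 1 at the start of mt-Nd3 with the mitochondrial base first, and it is the only difference over 345 aligned bases. Gm28438 had 7567, 2112 and 4732 counts in washout 1, 2 and 3, 5734 and 795 with compE, and 786 and 4524 with Fc-JAG1. Of the annotated copies of this stretch it was the only one with over 200 counts in a library, and its counts equalled 0.128% to 0.616% of the mitochondrial counts.

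By these projected positions the copied stretch wholly holds 11 members, the 6 protein-coding genes and 5 tRNAs (mt-Ts1, mt-Td, mt-Tk, mt-Tg and mt-Tr). Of the 11, 9 were at 0 counts in all 7 libraries. Among the 24 members wholly outside it, 5 were at 0 in all libraries, the tRNAs mt-Tf, mt-Tw, mt-Ty, mt-Th and mt-Ts2, and 14 had at least 10 counts in each library. The 5 tRNAs inside the stretch share 0 windows with an annotated copy, and, as for mt-Atp8, the sequence between the annotated copies was not compared here. With uniquely mapped reads, low counts of the protein-coding genes in the stretch cannot be told apart from absent transcripts. Per window not shared with a nuclear copy, mt-Nd4 stood at 2.68 to 4.59 times and mt-Co1 at 2.38 to 4.06 times the level of mt-Nd2, so for both the distance from mt-Nd2 is wider than per kilobase. On this scale mt-Nd4 stood above mt-Co1 in all libraries but washout 1 and 2.

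**Figure D4:**
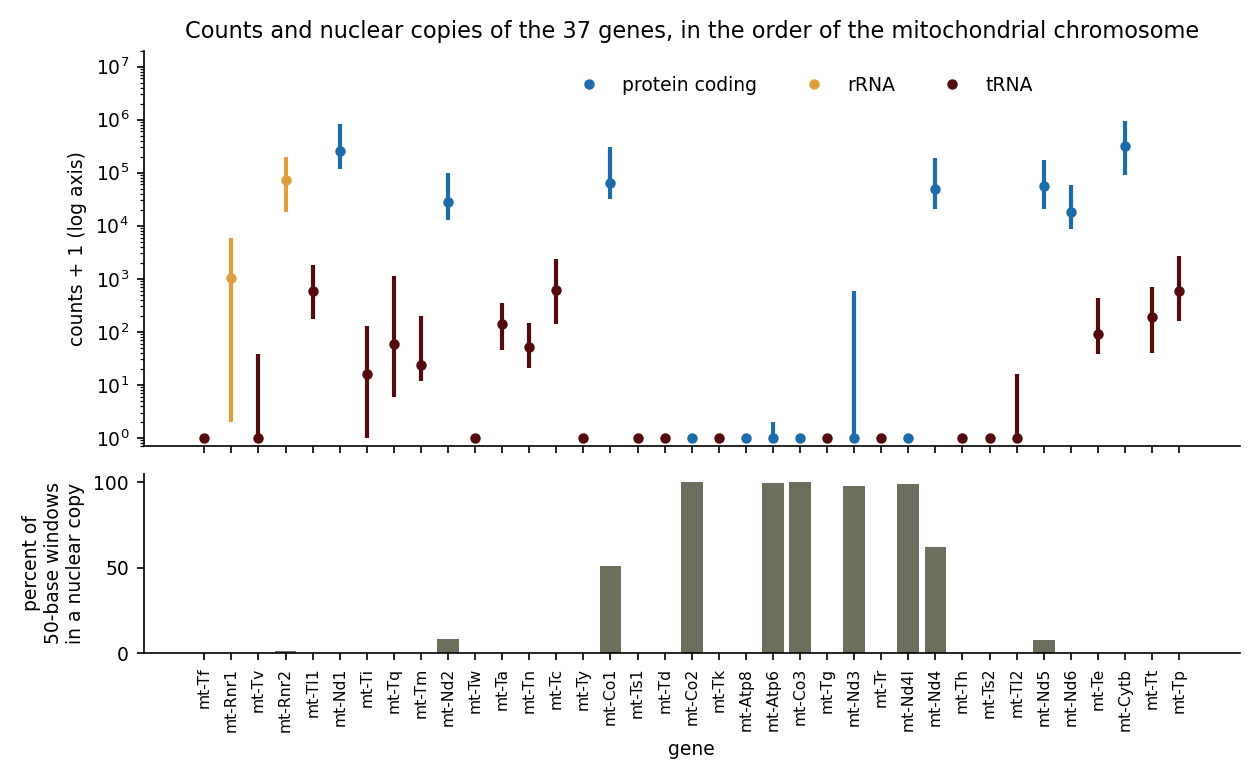
The upper panel gives the median (point) and range (line) of counts + 1 over the 7 libraries on a log axis, for the 37 genes in their order on the chromosome. The lower panel gives the percent of each gene's 50-base windows that also occur in an annotated nuclear copy. The 5 genes with 98.0% to 100% of their windows copied, and the tRNAs between them, lie at or near 0 counts, apart from 590 counts of mt-Nd3 in compE 1.

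The tRNA members, 59 to 75 bases long, carry single amino acids to the mitochondrial ribosome. Of the 22, 10 had 0 counts in all libraries, 8 had at least 10 counts in all 7, and 4 lay between. Some are printed with the anticodon in capitals, the 3 with the highest summed counts of those with 10 or more in each library (mt-Tp for proline, mt-Tc for cysteine, mt-Tl1 for leucine) and 2 at 0 in all (mt-Tf for phenylalanine, mt-Ts2 for serine).
mt-Tp: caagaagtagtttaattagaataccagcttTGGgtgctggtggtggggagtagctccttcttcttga
mt-Tc: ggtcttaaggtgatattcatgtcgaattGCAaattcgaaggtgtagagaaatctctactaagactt
mt-Tl1: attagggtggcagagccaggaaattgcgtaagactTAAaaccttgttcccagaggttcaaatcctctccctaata
mt-Tf: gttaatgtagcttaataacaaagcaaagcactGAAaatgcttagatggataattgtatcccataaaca
mt-Ts2: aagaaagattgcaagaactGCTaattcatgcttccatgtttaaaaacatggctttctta
These genes are hardly longer than a read of 50 bases, so few reads can lie within one. A read of that length touches mt-Tp and no other gene at 67 start positions, mt-Tc at 51, mt-Tl1 at 26, mt-Tf at 20 and mt-Ts2 at 9.

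mt-Tp, the last gene before the control region, had 2668, 597 and 595 counts in washout 1, 2 and 3, 1246 and 272 with compE, and 159 and 1974 with Fc-JAG1. mt-Tc had 2398, 140 and 625 in the washout, 665 and 140 with compE, and 192 and 882 with Fc-JAG1. mt-Tl1 had 1848, 176 and 581 in the washout, 1251 and 264 with compE, and 313 and 1731 with Fc-JAG1. mt-Tl1 was highest in washout 1 and lowest in washout 2, mt-Tc was at 140 in both washout 2 and compE 2, and mt-Tp was lowest in Fc-JAG1 1. mt-Tt (threonine) had 416, 46 and 214 in the washout, 193 and 60 with compE, and 39 and 684 with Fc-JAG1. mt-Te (glutamate) had 434, 37 and 90, then 323 and 45, then 77 and 231, in the same order of conditions. mt-Ta (alanine) had 345, 126 and 138, then 307 and 45, then 78 and 191. These members were above 10 counts in each library.

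mt-Tn (asparagine) had 145, 28 and 50 counts in the washout, 120 and 20 with compE, and 24 and 97 with Fc-JAG1. mt-Tm (methionine) had 149, 14 and 65 in the washout, 23 and 14 with compE, and 11 and 196 with Fc-JAG1. mt-Tq (glutamine) had 720, 48 and 112 in the washout, 9 and 57 with compE, and 5 and 1126 with Fc-JAG1. mt-Tq spread most of all tRNAs with a count in each library, from 0.000448% to 0.0582% of mitochondrial counts. mt-Ti (isoleucine) had 127, 0 and 113 in the washout, 11 and 2 with compE, and 52 and 15 with Fc-JAG1. mt-Tv (valine), which lies between the rRNA genes, had 11 counts in compE 1, 37 in Fc-JAG1 3 and 0 in the other 5. mt-Tl2 had 15 counts in compE 1 and 0 elsewhere.

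The steady members moved together. Of the 19 members that passed the authors' filter (10 counts or more in 2 or more replicates of a condition), 16 had 10 or more counts in all 7 libraries, 84.2%, against 29.3% of the 10292 other genes that passed. As these members were kept partly by their high counts, this describes their level and is no support for a difference. Over the 7 libraries the SD of log2(CPM + 1) had a median of 1.46 over the 19 members and of 2.41 over the others. For the 16, the log2 share of total counts had a median SD of 1.48, and the log2 share of mitochondrial counts one of 0.28. The second SD was the smaller for 16 of 16 members. The 16 leave out the tested members mt-Rnr1 and mt-Tq, where it was 3.98 and 2.62, and mt-Ti, which had 0 counts in washout 2. mt-Nd1 and mt-Cytb also make up 55.1% to 72.6% of the mitochondrial total, which holds down the SD of their own shares. The correlation of log2 CPM over the 7 libraries between pairs of the 16 ran from 0.49 (mt-Rnr2 with mt-Tm) to 0.999 (mt-Co1 with mt-Te), with a median of 0.91 over 120 pairs. The points share libraries and library totals, so these values are a description.

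With compE, which kept Notch inhibited while the washout released it, the mitochondrial genes differed less from the washout than libraries of the washout did from each other. The share of total counts was 4.15% ± 4.12 (SD, n = 2) with compE and 5.44% ± 6.32 (SD, n = 3) in the washout. The difference of −1.29 percentage points had p = 1 in an exact two-sided permutation test, which with 2 against 3 libraries cannot go below 0.2. Within sample number 1 compE minus washout was −5.63 points (7.07% against 12.7%), and within number 2 it was 0.0943 points (1.24% against 1.14%). Without washout 1 the difference was 2.34 points and without compE 2 it was 1.62 points, so its direction rests on these libraries.

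Of the 19 members tested with compE against the washout, 0 were called by edgeR's quasi-likelihood test, as were 0% of all 10311 genes. By DESeq2 0 members were called, against 9.33% of all genes (5.66% higher and 3.67% lower). At an unadjusted p under 0.05, edgeR gave 0 members and 271 genes, and DESeq2 gave 0 members and 2225 genes. The log2 fold changes had a median of −0.18 over the members and −0.097 over all genes, with 5 members above 0 and 14 below. The direction of this tally depended on the method, since limma on the deposited log2 values gave 12 above 0 and 7 below (median 0.091), and edgeR with no filter gave 12 of 23 above 0 (median 0.015). Without washout 1 the median of the members was 1.54 and without compE 1 it was 0.16. mt-Rnr1 had a log2 fold change of 0.69 (SE 2.71), mt-Rnr2 one of 0.52 (SE 0.52) and mt-Nd6 one of −0.080 (SE 0.57), each with an adjusted p of 1.00 by edgeR. The 3 other members with the smallest p were the tRNAs mt-Ti at −3.78 (SE 2.34), mt-Tq at −2.73 (SE 3.37) and mt-Tm at −1.65 (SE 2.30), also with an adjusted p of 1.00. For these tRNAs compE 1 had 11, 9 and 23 counts, beside 127, 720 and 149 in washout 1. No member was without overlap between the conditions in CPM, against 17.2% of all genes tested.

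With Fc-JAG1, which binds NOTCH1 in trans, the share of mitochondrial counts was 4.61% ± 3.87 (SD, n = 2), against 5.44% ± 6.32 in the washout (SD, n = 3). The difference was −0.831 points (exact two-sided permutation test, p = 1, smallest possible 0.2). Within sample number 1 Fc-JAG1 minus washout was −10.8 points, and within number 3 it was 4.86 points. The samples therefore went opposite ways, and the difference was 2.80 points without washout 1 and 1.90 points without Fc-JAG1 1. On a log2 scale it was 0.17.

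By edgeR 0 of 19 members were called with Fc-JAG1 against the washout (0% of all genes), and 0 by DESeq2, against 20.4% of all genes (15.7% higher and 4.74% lower). At an unadjusted p under 0.05 edgeR gave 0 members and 526 genes, and DESeq2 gave 1 member and 3236 genes. The median log2 fold change was −0.81 over the members and 0.44 over all genes, and 17 of 19 members lay below 0. mt-Cytb had the smallest p, with a log2 fold change of −1.13 (SE 0.62, edgeR adjusted p = 0.828). mt-Ti followed at −2.43 (SE 1.50, edgeR adjusted p = 0.842) and mt-Nd1 at −0.95 (SE 0.62, edgeR adjusted p = 0.857). The rRNAs lay on the other side of 0, with mt-Rnr2 at 0.73 (SE 0.89) and mt-Rnr1 at 2.62 (SE 5.35), and mt-Nd6 was at −0.52 (SE 0.81). The direction of the rRNA values rests on the libraries of sample number 3. In washout 3 mt-Rnr1 had 1 count and mt-Rnr2 had 2.27% of mitochondrial counts, and mt-Rnr1 was at −2.14 and mt-Rnr2 at −2.06 without washout 3, and at −2.13 and −2.06 without Fc-JAG1 3. Without washout 3 or without Fc-JAG1 3 the median of the members was −3.24, without washout 1 it was 0.58 and without Fc-JAG1 1 it was 1.78, so that the members changed side as a group with a single library. Without Fc-JAG1 1, where the lone Fc-JAG1 library is assumed to vary like the others, DESeq2 put mt-Rnr1 at 12.74. That value sets 5864 counts in Fc-JAG1 3 against 1 count in washout 3, so it has no firm size. No member was without overlap between these conditions in CPM, against 16.7% of all genes.

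Scaled to the mitochondrial total instead of all genes, the members with Fc-JAG1 had a median log2 fold change of −0.14 against the washout, mt-Rnr2 was at 1.50, mt-Rnr1 at 3.78 and mt-Nd6 at 0.26, 13 of 19 members lay below 0, and 0 were called by edgeR. Of the 7 mRNAs, 4 lay above 0 on this scale, mt-Nd2 at 0.21, mt-Nd4 at 0.087, mt-Nd5 at 0.45 and mt-Nd6, where all 7 lay below 0 with TMM. On this scale the median of all genes was 1.72. With compE the median of the members on the same scale was −0.092, with mt-Rnr2 at 0.67, mt-Rnr1 at 1.16 and mt-Nd6 at −0.060.

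Between Fc-JAG1 and compE, which share no library but were each set against the same washout above, the difference in mitochondrial share was 0.460 points (exact two-sided permutation test, p = 0.667, smallest possible 0.333). Only sample number 1 has both conditions, and there Fc-JAG1 minus compE was −5.19 points. By edgeR and by DESeq2 0 of 19 members were called, against 0% and 11.4% of all genes (9.18% higher and 2.21% lower by DESeq2). At an unadjusted p under 0.05 edgeR gave 0 members and 292 genes and DESeq2 0 members and 2541 genes. The median log2 fold change was −0.67 over the members and 0.43 over all genes, with 5 members above 0 and 14 below. With no replicate block this turned to 14 above 0 and 5 below (median 0.17), and scaled to the mitochondrial total 8 lay above 0 (median −0.016). Without Fc-JAG1 1 the median of the members was 2.18, and without washout 3 or Fc-JAG1 3 it was −2.73. mt-Cytb was at −0.95 (SE 0.72), mt-Nd4 at −0.95 (SE 0.81), mt-Nd1 at −0.75 (SE 0.71), mt-Nd6 at −0.44 (SE 0.92), mt-Rnr2 at 0.21 (SE 0.98) and mt-Rnr1 at 1.93 (SE 5.54). Each of these had an adjusted p of 1.00 by edgeR. mt-Ti alone did not overlap in CPM, with 52 and 15 counts in Fc-JAG1 1 and 3 and 11 and 2 in compE 1 and 2. This is 1 of 19 members, against 30.2% of all genes. Without Fc-JAG1 1 the log2 fold change of mt-Rnr1 was 13.67 by DESeq2. In that fit Fc-JAG1 3 shares its sample number with washout 3 alone, so the comparison with compE runs through the 1 count of washout 3, while the counts themselves were 5864 in Fc-JAG1 3 and 3821 and 149 in compE 1 and 2.

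**Figure D5:**
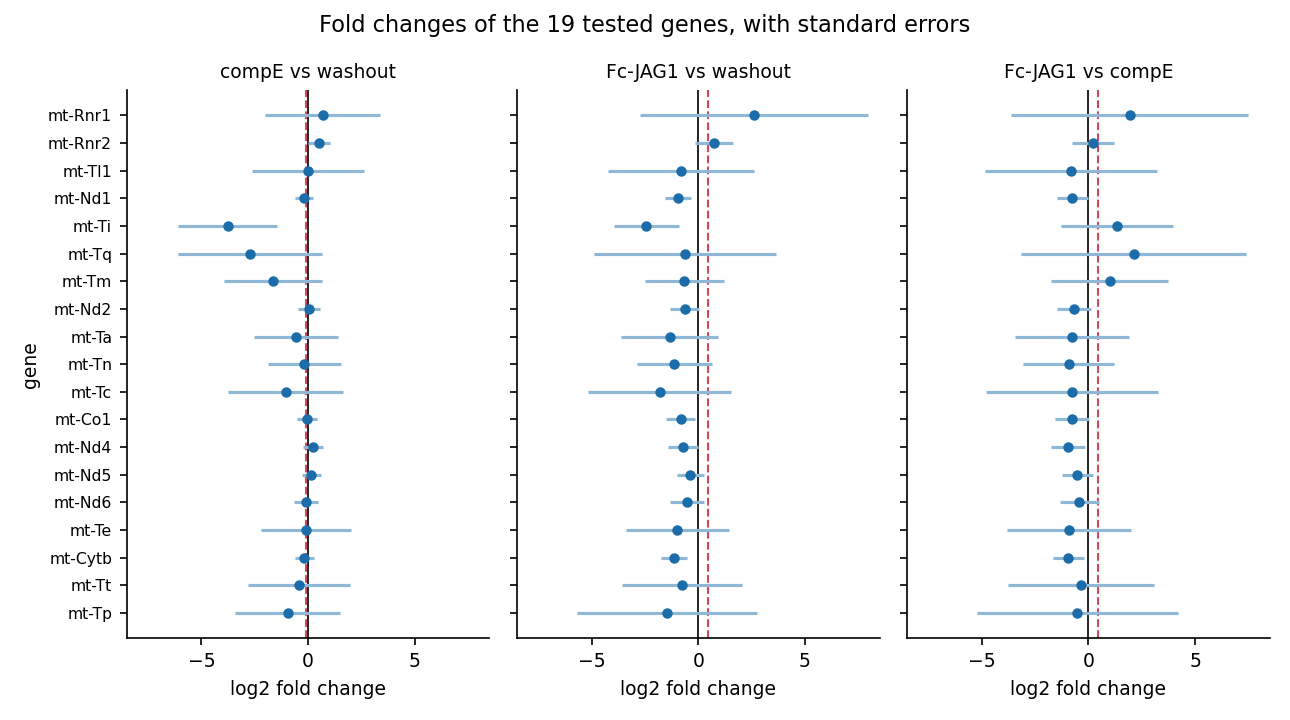
Points give the log2 fold change of the 19 tested members in the 3 comparisons, fitted by edgeR with the sample number as a block, and lines give the standard errors. The black line is 0 and the dashed red line is the median of all 10311 genes. With this scaling the mRNAs lie near 0 with compE and below 0 with Fc-JAG1, and the rRNAs lie above 0. Scaled to the mitochondrial total, 4 of 7 mRNAs lie above 0 with Fc-JAG1 against the washout. By limma mt-Rnr2 with Fc-JAG1 lies below 0 against compE. Several of these directions change when a library is left out. The errors of the small rRNA, of several tRNAs, of mt-Nd6 and, with Fc-JAG1, of mt-Rnr2 are wider than their fold changes.

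The nuclear genes that serve the mitochondrial chromosome gave no calls by edgeR in any of the 3 comparisons. In each of these edgeR called 0% of all 10311 genes, so this is no result about the lists. The lists were mtDNA transcription (7 of 11 genes tested), mtDNA replication and maintenance (14 of 16), processing, modification and turnover of mitochondrial RNA (29 of 35), nuclear regulators of mitochondrial biogenesis (7 of 8) and nuclear-encoded core subunits of complexes I, III, IV and V (14 of 15). At an unadjusted p under 0.05 edgeR gave 1 gene of the processing list between Fc-JAG1 and compE and 0 in all other cases. Over all genes it gave 271 with compE and 526 with Fc-JAG1 against the washout, and 292 between Fc-JAG1 and compE. Polrmt, the polymerase, had 8, 1739 and 1188 counts in washout 1, 2 and 3, 10188 and 5605 with compE, and 4329 and 1 with Fc-JAG1. Tfam, which packages the DNA and opens its promoters, had 1212, 4573 and 4073, then 5107 and 3647, then 4456 and 1887. Polrmt was thus at single counts in washout 1 and Fc-JAG1 3, the libraries with the highest mitochondrial shares, and at 10188 in compE 1, which had the next highest. Counts of mitochondrial mRNA were 43.5 and 21.7 times those of the nuclear-encoded core subunits in washout 1 and Fc-JAG1 3, 24.7 times in compE 1 and 2.55 to 5.21 times in the other 4 libraries.

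With compE against the washout, the smallest p-values by edgeR of the transcription list were those of Mterf4, Mterf2 and Polrmt, at log2 fold changes of 5.17 (SE 2.49), −10.58 (SE 6.57) and 1.94 (SE 2.96). Those of the replication list were Lig3, Rrm2b and Atad3a at 3.93, −1.30 and −0.84, and those of the processing list Fastkd1, Trmt5 and Slirp at 5.59, −13.84 and −3.03. The regulators Gabpa, Ppargc1b and Yy1 were at 3.17, 2.83 and 1.95 and the core subunits Cox5a, Atp5b and Cyc1 at −3.55, −0.55 and −2.21. DESeq2 called 1 gene lower of the transcription list (Mterf2), 3 higher (Fastkd1, Supv3l1 and Gtpbp3) and 1 lower (Trmt5) of the processing list, 1 lower of the core subunits (Cox5a) and 0 of the other 2 lists, against 9.33% of all genes. Many of these genes were at 0 in some libraries of a condition, as Mterf2 was in washout 1 and in both compE libraries, and their fitted fold changes have no firm size.

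With Fc-JAG1 against the washout, Mterf4, Mterf2 and Tfb2m were at 4.56 (SE 3.18), −4.89 (SE 3.53) and −3.08 (SE 3.75), and Atad3a, Primpol and Top3a of the replication list at −3.59, −11.92 and 6.64. Of the processing list Mto1, which modifies tRNA, was at 12.23 (SE 6.65). Ptcd1 was at 10.14 (SE 5.53) and Mtpap, the poly(A) polymerase, at −4.12 (SE 2.40). Mto1 had 0, 2834 and 0 counts in washout 1, 2 and 3 and 1071 and 690 with Fc-JAG1. Many genes of these lists were at 0 in some libraries, and their fitted fold changes have no firm size. Ppargc1b, Pprc1 and Gabpa were at 1.99, 1.63 and 1.43, and Ndufs7, Ndufv1 and Atp5a1 at −2.96, 3.93 and −0.59. DESeq2 called 1 higher (Top3a) and 3 lower (Mgme1, Atad3a and Primpol) of the replication list, 7 higher (Fastkd1 among them) and 1 lower (Mtpap) of the processing list, 1 higher of the core subunits (Ndufv1) and 0 of the other 2, against 15.7% of all genes higher and 4.74% lower. Between Fc-JAG1 and compE the processing list was led by Mto1, Trmt5 and Mtpap at 14.92 (SE 7.16), 12.63 (SE 9.09) and −3.34 (SE 2.49). Trmt5 had 0 counts in compE 1 and 2, and 1804 and 1 with Fc-JAG1, so its fold has no firm size either. Top3a, Primpol and Rrm2b led the replication list at 7.75, −11.97 and 4.30. Polrmt, Tfb2m and Mrpl12 led the transcription list at −2.49, −2.47 and −1.20. Yy1, Gabpb1 and Gabpa were at −2.22, −1.36 and −1.74 and Atp5b, Ndufs1 and Ndufv1 at 1.05, −4.68 and 4.46. DESeq2 called 3 of the processing list higher (Mto1, Nsun4 and Trit1), 1 of the replication list higher (Top3a) and 1 lower (Primpol), and 1 core subunit higher (Ndufv1), against 9.18% of all genes higher and 2.21% lower.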

How the data were processed

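RNA captured after EU labeling was sequenced in 7 libraries (50 bp single end), which were assigned to washout, compE or Fc-JAG1 by their labels. According to the sources, trimming was done by the authors with cutadapt 4.2 and alignment to GRCm38 with STAR 2.7.8, and reads with a single place were summed per gene by featureCounts (Subread 2.0.1). The raw counts deposited are not normalized, those in the filtered table cover the 10311 genes tested, and the log2 values deposited were made by the authors by variance stabilization in DESeq2 1.38.3. A further library that the authors left out, Fc-JAG1 2, was not used here. Reads that match more than 1 place, such as those shared by a member and its nuclear copy, are not counted.

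Symbols came from the GENCODE annotation. Shares are percents of all raw counts. Tests used edgeR 4.0.16 under R 4.3.3 (TMM, the quasi-likelihood test in its bias-adjusted form, terms for sample number and condition, Benjamini-Hochberg adjustment over all genes tested, threshold 0.05), and with DESeq2 1.42.0 as an alternative; shares were compared by exact permutation. limma 3.58.1 was run on the deposited log2 values. The study treats its samples as paired. The deviations of libraries from their condition mean correlated at −0.0854 to 0.0915 for the same number and at −0.0964 to 0.0964 for different numbers. With 2 libraries in compE and in Fc-JAG1, the deviations within each of these conditions mirror each other, so these values cannot test the pairing. A run of the fit on simulated data is no support for the lack of calls. The common dispersion was 2.42, and a lack of calls by edgeR does not show a lack of change. The 37 members and the lists were chosen with earlier results of these data known. By rule, all members are accounted for, fold changes are given for mt-Rnr1, mt-Rnr2, mt-Nd6 and the 3 others with the smallest p, and of each list the 3 genes with the smallest p, with genes called by DESeq2 named after their values were seen.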

Additional observations from a re-analysis of the deposited data

How the results depend on the processing

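The spread between libraries limits these results. Whether the number of RNA molecules sampled per library plays a part in that spread was not tested. The counts of members called stayed at 0 in each of the 3 comparisons under another scaling (DESeq2 size factors, total counts, mitochondrial counts), with no filter, by limma, by the likelihood ratio and earlier quasi-likelihood tests and with no replicate block. In these edgeR and limma fits the calls over all genes were at most 132 higher and 3 lower (likelihood ratio, Fc-JAG1 against the washout). Leaving out a washout library gave 0 members called in each comparison, by edgeR and by DESeq2. By edgeR 0 of all 10311 genes were called in these fits too. Without washout 1 DESeq2 called 43 genes higher and 84 lower with compE against the washout, and 1240 higher and 697 lower with Fc-JAG1. Without Fc-JAG1 1, which leaves 1 Fc-JAG1 library, DESeq2 put mt-Rnr1 at 12.74 against the washout and 13.67 against compE (log2). Calls are not counted here for fits that leave 1 library of a condition. With washout 3 left out, 9 of 19 members had an unadjusted edgeR p under 0.05 for Fc-JAG1 against the washout, beside 326 of all 10311 genes. Against compE it was 8 members, beside 390 genes. In that fit Fc-JAG1 3 shares its sample number with no other library, so both comparisons rest on Fc-JAG1 1. Members share libraries and moved together, so these counts are a description. Member medians were −3.24 and −2.73 without washout 3 or without Fc-JAG1 3, and 1.78 and 2.18 without Fc-JAG1 1. DESeq2 alternatives without libraries or block were added after the data were seen. For Fc-JAG1 against the washout, scaling moved the median over all genes from 0.44 (TMM) to 0.066 (DESeq2 size factors) and 0.70 (total counts), on the log2 scale. The relation of mitochondrial share to genes detected was not computed, nor were its alternatives, because the libraries form 2 separate sets.

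The difference in mitochondrial share kept its direction with other denominators, without the rRNA genes and with nuclear copies added. For Fc-JAG1 against the washout it was 0.17 on a log2 scale, and for Fc-JAG1 against compE it was −5.19 points with the replicate block, which leaves 1 pair. The block gave −2.77 and −2.98 points for compE and Fc-JAG1 against the washout. Leaving out a library gave −4.21 to 2.34 points for compE against the washout, −3.57 to 2.80 for Fc-JAG1 against the washout and −2.46 to 3.38 for Fc-JAG1 against compE.

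On the log2 scale, mt-Nd6 with compE was 0.091 by limma. With Fc-JAG1, mt-Nd6 was 0.26 against the washout and 0.32 against compE when scaled to mitochondrial counts, and mt-Rnr2 against compE was −0.42 by limma. With no replicate block, mt-Nd6, mt-Cytb and mt-Nd1 against compE were 0.15, 0.21 and 0.17, and the block changed no call. Without a library, values with compE ran from −2.82 to 2.33 (mt-Rnr1), 0.090 to 2.18 (mt-Rnr2), −0.47 to 1.16 (mt-Nd6), −4.11 to 3.77 (mt-Ti), −5.86 to 0.83 (mt-Tq) and −2.39 to 1.64 (mt-Tm). With Fc-JAG1 against the washout they ran from −2.14 to 12.60 (mt-Rnr1), −2.06 to 3.70 (mt-Rnr2), −2.66 to 1.79 (mt-Nd6), −3.24 to 1.19 (mt-Cytb), −2.66 to −2.23 (mt-Ti) and −3.12 to 1.41 (mt-Nd1). Against compE they ran from −1.58 to 13.16 (mt-Rnr1), −2.15 to 3.61 (mt-Rnr2), −2.20 to 2.25 (mt-Nd6), −2.73 to 1.70 (mt-Cytb), −2.89 to 1.92 (mt-Nd4) and −2.56 to 1.96 (mt-Nd1). The highest values of mt-Rnr1 with Fc-JAG1 are set against the 1 count of washout 3. The cause of the other changes was not tested.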
